A study of Mus musculus with 32 samples.

Results

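The genes described here encode lipocalins that carry odorants and pheromones: Lcn3, Lcn4, Lcn11, Lcn13 and Lcn14, the odorant-binding proteins Obp1a, Obp2a and Obp2b, and the major urinary protein Mup4. They were chosen by name, and 7 of the 9 names have a row among the 49671 genes of the count tables. The other 2 names, Lcn13 and Lcn14, are listed by RefSeq (GRCm38.p6) as older names of Obp2a and Obp2b, so the 9 names stand for 7 genes. All 7 passed the filter on low counts and were tested.

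RNA was sequenced from the vomeronasal epithelium of individual mice at 42 days of age, from 4 inbred strains: 129S6/SVEV (129), C57/BL6 (B6), SJL/J (SJL) and SWR/J (SWR). Each strain gave 4 males and 4 females, 1 library per mouse, for 32 libraries in 8 groups, and the labels name no treatment or engineered allele. Libraries are named here by strain, sex and the number from 1 to 4 in their label. Total counts were between 5106398 and 18640871 per library, with a median of 11461344. Of 7 listed markers of vomeronasal sensory neurons, Trpc2 was at 0 in every library, while Xntrpc was between 670 and 1425 normalized read counts and the olfactory marker protein gene Omp between 14488 and 23292. Only uniquely mapped reads were counted, and how reads of Trpc2 were assigned was not tested. The 0 therefore does not show that Trpc2 is not expressed.

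Lipocalins are small secreted proteins folded into a barrel that holds a hydrophobic ligand. In the nose they are made by glands and released into mucus, where they are thought to carry hydrophobic odorants and pheromones to and from the receptor cells. Lcn3 and Lcn4 are also known as vomeronasal secretory proteins and Obp2a and Obp2b are secretory lipocalins of the nasal cavity. Major urinary proteins are best known from liver and urine, where they bind volatile pheromones, but Mup4 is known from nasal and other glandular tissue.

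5 of the 7 genes lie on chromosome 2 (GRCm38). Obp2a (ENSMUSG00000062061, chr2:25700043-25703326), Obp2b (ENSMUSG00000079539, chr2:25737009-25740097), Lcn3 (ENSMUSG00000026936, chr2:25765569-25768099) and Lcn11 (ENSMUSG00000069080, chr2:25777017-25780279) follow each other on the plus strand. Lcn4 (ENSMUSG00000026919, chr2:26667674-26671282) lies farther along on the minus strand. Obp1a (ENSMUSG00000067684, chrX:78085505-78091374, minus strand) is on chromosome X and Mup4 (ENSMUSG00000041333, chr4:59956804-59960710, minus strand) on chromosome 4. The transcripts of Obp2a and Obp2b were the most alike of the 21 pairs, at 72.6% identity over their alignment, against 48.1% to 58.2% for the other pairs. A stretch of 100 bases was shared with another gene at 31 of 645 positions in Obp2a and 31 of 633 in Obp2b, each time between that pair, and at 0 positions in the other 5 genes. Stretches of 31 bases were shared with other genes over 38% of Mup4, mostly with Mup3, and over 15.8% of Obp1a, mostly with Gm5938. How reads in such stretches were assigned was not tested.

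The 120 reference bases before the outermost of the RefSeq and GENCODE gene starts are shown for the 4 chromosome 2 genes with high and joint expression and for Obp1a, which followed another pattern. Capitals mark TATAAA and, in Obp2a, Obp2b and Lcn4, the 25-letter motif ATAAAGGGCANCCTNTGAGGAGCCA, where N is any base. The windows are Obp2a at chr2:25699923-25700042, Obp2b at chr2:25736887-25737006 and Lcn3 at chr2:25765413-25765532 on the plus strand, and Lcn4 at chr2:26671283-26671402 and Obp1a at chrX:78091375-78091494 on the minus strand, from RefSeq promoters on GRCm38.p6. Gene positions given above are those of GENCODE, and for Obp2b and Lcn3 the RefSeq start, at 25737007 and 25765533, lies upstream of the GENCODE start.
Obp2a: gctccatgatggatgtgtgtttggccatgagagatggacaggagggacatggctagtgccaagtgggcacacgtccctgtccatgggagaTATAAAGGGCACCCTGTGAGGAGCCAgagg
Obp2b: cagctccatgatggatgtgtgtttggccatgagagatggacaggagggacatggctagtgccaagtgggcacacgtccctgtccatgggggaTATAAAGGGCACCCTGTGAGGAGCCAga
Lcn3: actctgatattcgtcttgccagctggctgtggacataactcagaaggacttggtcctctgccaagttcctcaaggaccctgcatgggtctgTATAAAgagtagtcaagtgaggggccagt
Lcn4: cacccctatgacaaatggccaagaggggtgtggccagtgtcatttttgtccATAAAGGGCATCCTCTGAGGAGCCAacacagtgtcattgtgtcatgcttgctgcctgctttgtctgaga
Obp1a: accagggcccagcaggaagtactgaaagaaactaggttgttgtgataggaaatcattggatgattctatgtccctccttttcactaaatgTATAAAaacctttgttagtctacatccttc

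The windows of Obp2a and Obp2b had 95.9% identity, more than their transcripts. Lcn3 was next, at 61.9% with Obp2b and 61.2% with Obp2a, and the remaining pairs were between 39% and 51.9%. The 25-letter motif was read from the Obp2a, Obp2b and Lcn4 windows after their levels were seen. On either strand it occurred in 3 of 32851 promoter windows of 300 bases, those of the same 3 genes. TATAAA, also on either strand, was in 13.6% of all windows and in those of Obp2a, Obp2b, Lcn3, Obp1a and Mup4. It overlaps the first letters of the longer motif in Obp2a and Obp2b. Relative to that outermost start, the longer motif began at -69 in Lcn4, -29 in Obp2a and -27 in Obp2b. These are matches of letters in the reference genome, not measured sites.

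Obp2a and Obp2b were among the most abundant transcripts of the tissue. Compared between genes as TPM, a share of transcripts that divides each count by exon length, the median level over 32 libraries was 3675 for Obp2a, 3408 for Obp2b, 1821 for Lcn3 and 663 for Lcn4. Among 49326 genes with a length, these medians ranked 10, 12, 20 and 74. Lcn11 had a median of 16 TPM, Mup4 of 2.37 and Obp1a of 0.917. The order from Obp2b through Lcn3 and Lcn4 to Lcn11 held in each of the 32 libraries. Obp2a was above Obp2b in 23 of 32 libraries, with a ratio of 0.886 to 1.28. By strain it was above in 8 of 8 libraries of 129 and of SWR, in 5 of 8 of B6 and in 2 of 8 of SJL. Lcn11 was above Mup4 in 28 libraries and Mup4 above Obp1a in 19, with wide ratios in both cases. Together the 7 genes took from 0.0577% to 2.44% of a library's counts, with a median of 0.293%, and 93.9% to 99.9% of that came from Obp2a, Obp2b, Lcn3 and Lcn4.

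The 4 high chromosome 2 genes varied between mice far more than most genes. In normalized read counts, which are counts divided by a size factor per library, Obp2a was between 2374 in B6 female 4 and 105890 in 129 male 1. B6 female 1 was nearly as high, at 105565, and SJL female 1 followed at 50553. Within 129, Obp2a had a lowest value of 5970, a median of 23379 and a highest of 105890. In B6 the values were 2374, 6463 and 105565. The SJL libraries were between 6674 and 50553 with a median of 13031, and the SWR libraries between 5058 and 24750 with a median of 9492. The ranges of all 4 strains overlapped.

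Obp2b (2523 to 101036), Lcn3 (1033 to 55126) and Lcn4 (505 to 27198) had their lowest value in B6 female 4 as well, and their 2 highest in 129 male 1 and B6 female 1. Lcn11, far lower, was between 11 in B6 female 4 and 419 in 129 male 1. The standard deviation of log2 CPM (counts scaled to library size) within the 8 groups was 1.31 for Obp2a, 1.27 for Obp2b, 1.39 for Lcn3, 1.37 for Lcn4 and 1.41 for Lcn11. The median over the 18382 genes tested was 0.18. Of the 2253 genes with a mean of at least 100 CPM, 11 had a larger SD than Obp2a and 7 a larger one than Lcn3.

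**Figure D1:**
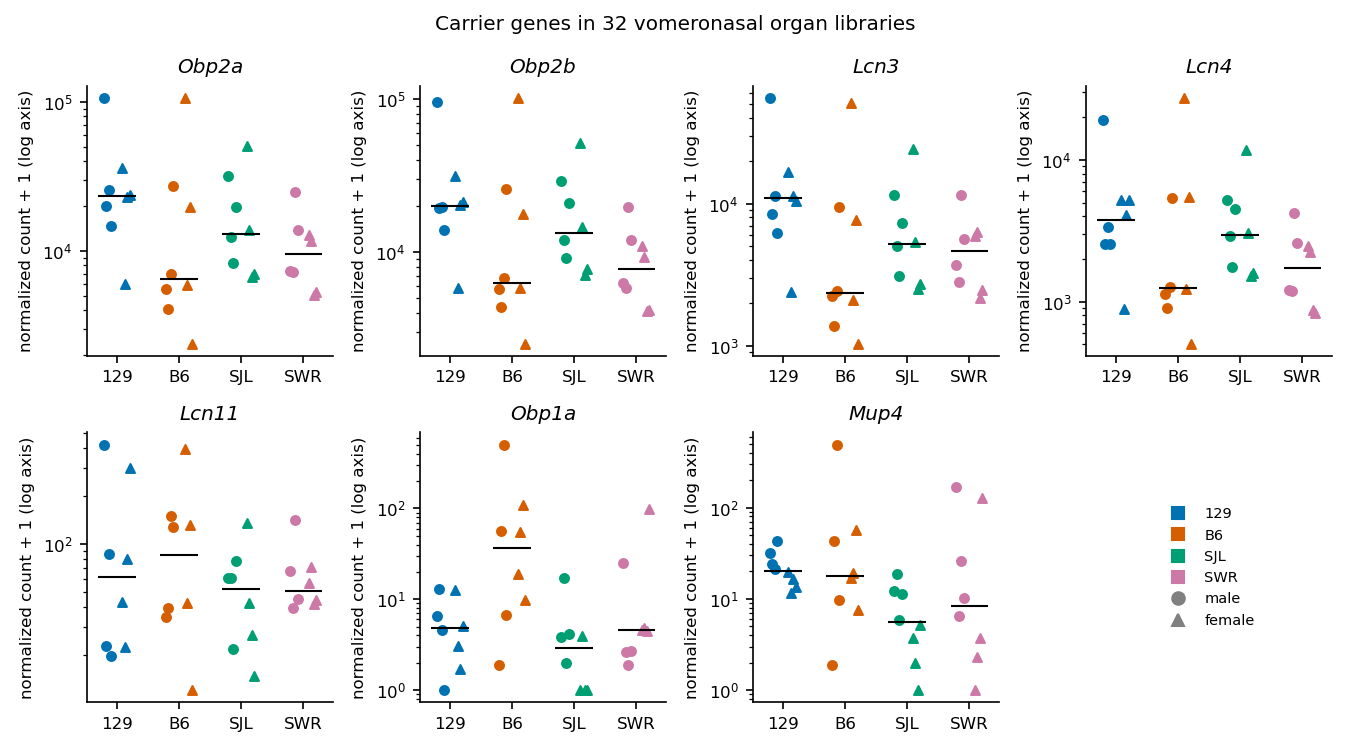
Normalized read count + 1 (log axis) of the 7 genes in each of the 32 libraries, by strain, with circles for males and triangles for females; the black line is the median of 8 libraries. 129 male 1 and B6 female 1 stand highest for the 5 chromosome 2 genes, while B6 male 3 stands highest for Obp1a and Mup4, at 501 and 487 normalized counts.

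These genes rose and fell together. On log2(normalized count + 1) with each strain's mean taken away, Pearson's r over 32 libraries was 0.998 for Obp2a and Obp2b (Spearman's rho 0.996). For the 6 pairs among Obp2a, Obp2b, Lcn3 and Lcn4, r was between 0.989 and 0.998 and rho between 0.976 and 0.996, and the adjusted permutation p was 2.1e-05 in each, from the smallest raw p that 100000 shuffles of libraries within strains can give (1e-05), adjusted over 21 pairs. Leaving out the 2 libraries farthest from the median left r between 0.981 and 0.997. Inside single strains of 8 libraries, r for these pairs was between 0.978 and 0.999. The 2 sexes of a strain were kept together here.

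Lcn11 followed the same libraries less closely, with r from 0.801 to 0.831 with the 4 genes, rho from 0.784 to 0.81, an adjusted permutation p of 2.1e-05, and r from 0.72 to 0.767 without the 2 farthest libraries. In 129, for example, Lcn11 was 299 in female 4 and 41.9 in female 1, while Obp2a was 23609 and 35728. None of the 10 pairs of a chromosome 2 gene with Obp1a or Mup4 passed the same test, with r between -0.055 and 0.214 and a permutation p adjusted over 21 pairs of 0.36 or more.

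**Figure D2:**
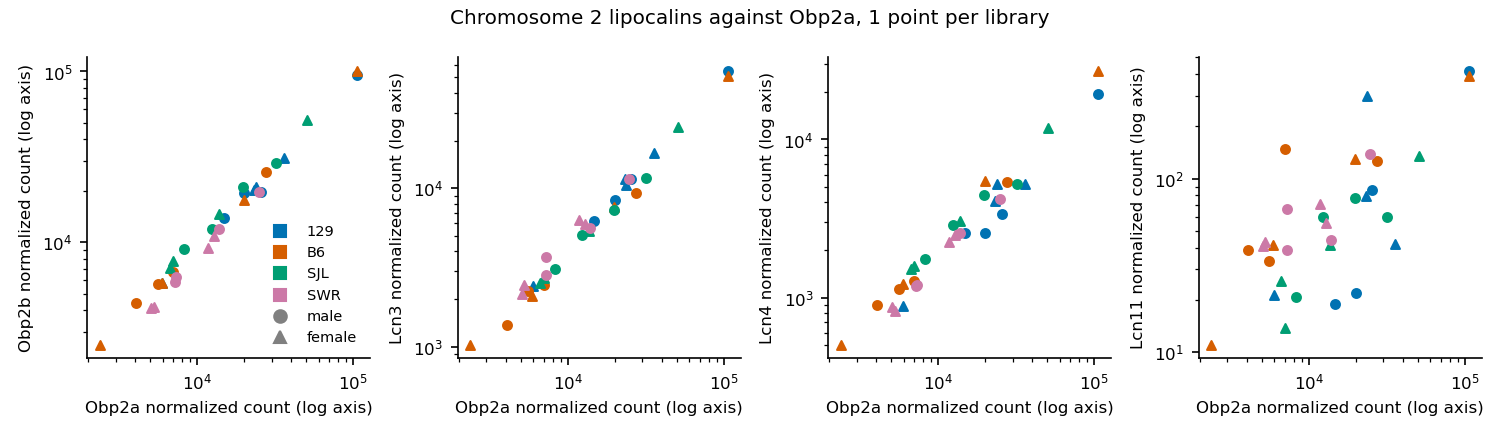
Normalized read counts (log axes) of Obp2b, Lcn3, Lcn4 and Lcn11 against Obp2a, with 1 point per library, colored by strain, circles for males and triangles for females. Obp2b, Lcn3 and Lcn4 follow Obp2a in a narrow band in all 4 strains (r 0.989 to 0.998) and Lcn11 scatters more widely (r = 0.813). These r are on log2 counts with each strain's mean taken away, while the points are not centred.

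The genes outside this set that were most like Obp2a were Dmbt1 (r = 0.982 on log2 CPM, n = 32), a secreted mucosal defense protein, Wfdc18 (r = 0.962), a secreted protein with a whey acidic protein domain, and Qsox1 (r = 0.953), which forms disulfide bonds in secreted proteins. The same 3 genes were the most like Obp2b, Lcn3 and Lcn4. For Lcn11 they were Gabrp (r = 0.845), Atp2a3 (r = 0.844) and Cyp2f2 (r = 0.84). The libraries share their depth and dissection, and these correlations were picked as the highest among 18382 genes, so they are given as a description.

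The summed level of some marker lists moved with Obp2a. For 15 gland markers, all listed and 10 of them tested, r with Obp2a was 0.955 (rho 0.94, permutation p adjusted over 15 relations 0.00015, n = 32), and 0.929 without the 2 farthest libraries. In single strains it was between 0.924 and 0.971. The summed gland level was between 8365 and 140820 normalized counts in 129, 7443 and 156981 in B6, 7179 and 67330 in SJL, and 13700 and 57469 in SWR, and Dmbt1 (2363 to 97609) and the antimicrobial lactoferrin gene Ltf (2107 to 53986) made up most of it. Dmbt1 was also the gene outside the set most like Obp2a, and the lists were chosen with earlier results known. The p for the gland list is therefore a description, not an independent test. Not all gland markers followed the sum. In B6 female 1 and 129 male 1, Dcpp3 was at 0 and 0.936 normalized counts and Bpifb9b at 2.13 and 0. For 5 ciliated cell markers r was 0.679 (adjusted permutation p 0.00315), falling to 0.422 without the 2 farthest libraries. The lists for sustentacular cells (r = 0.49, adjusted permutation p 0.0744), vomeronasal sensory neurons (r = -0.187) and main olfactory sensory neurons (r = -0.234) did not pass. In these bulk libraries, fewer cells of a type and less RNA per cell cannot be told apart, and the part of gland content in the levels was not tested further.

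The number in the label also moved with these genes. The highest Obp2a level of a group was in the library numbered 1 in 6 of the 8 groups, and for Lcn3 and Lcn4 in 5. In a model of strain, sex and number, Obp2a was lower in the libraries numbered 2, 3 and 4 than in number 1, by log2 fold changes (LFC) of -2.01, -1.51 and -1.61. None of the 7 genes passed the edgeR quasi-likelihood test of number over all genes (background 0.0598% of 18382 genes), with adjusted p from 0.277 for Lcn3 to 0.472 for Lcn4 among the 4 high genes. These 4 of the 7 had an unadjusted p under 0.05, but they vary together and are not independent of each other. The share of all genes under that unadjusted limit was not computed. The number comes from a pattern of read-file names in the labels, in a place where a sequencing lane can stand, and the labels do not state what it is.

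For strain differences, each pair of strains was compared across all 18382 genes with edgeR, and a call needed an FDR (adjusted p) under 0.05 with an LFC of more than 1 in either direction. Of the 7 genes, 4 were called in at least 1 pair: Obp1a, Mup4, Obp2a and Obp2b, beside a background of 19.8% of all genes tested. Obp1a was called in 3 pairs, Mup4 in 2 and Obp2a and Obp2b in 1 each. Lcn3, Lcn4 and Lcn11 were called in none.

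Obp2a and Obp2b were lower in SWR than in 129. The mean normalized count of Obp2a was 10989 ± 6520 (SD, n = 8) in SWR and 31813 ± 31135 in 129, an LFC of -1.54 ± 0.62 (SE) with an edgeR FDR of 0.0434. That of Obp2b was 9063 ± 5271 in SWR and 28286 ± 27835 in 129, with an LFC of -1.65 ± 0.61 (FDR 0.0275). These were 2 of 7 genes called in this pair, against 7.73% of all genes, and 4 of the 7 had an unadjusted p under 0.05. Lcn3 (LFC -1.61 ± 0.67, FDR 0.0505) and Lcn4 (LFC -1.49 ± 0.65, FDR 0.0635) had values of similar size that did not pass. The 4 LFC come from the same joint variation between libraries and are not independent of each other.

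Neither call held without 129 male 1. Without that library the LFC was -0.90 for Obp2a (FDR 0.226) and -1 for Obp2b (FDR 0.163). The Obp2a call was lost when any 1 of 9 libraries was left out, 2 of 129 (male 1 and female 1) and 7 of SWR (males 1, 2 and 4 and females 1 to 4), with FDR from 0.0536 to 0.226. The Obp2b call was lost without any 1 of 4 (129 male 1, SWR male 2, and SWR females 3 and 4). With the number as a replicate block the Obp2a LFC was -1.08 (FDR 0.0841), while Obp2b was still called (LFC -1.21, FDR 0.0462). With both 129 male 1 and B6 female 1 left out, Obp2b was called as well (LFC -1.09, FDR 0.0428) and Obp2a was not (LFC -0.99, FDR 0.0797). Within numbers 1 to 4, where each strain has 2 libraries, the mean log2 difference of SWR minus 129 was -2.67, -0.25, -1.12 and -1.13 for Obp2a and -2.72, -0.53, -1.13 and -1.27 for Obp2b. In the same pair of strains 1 of 10 tested gland markers (Bpifb1) and 4 of 5 ciliated cell markers fell in SWR, and the part of either in the Obp2a and Obp2b values was not tested.

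**Figure D3:**
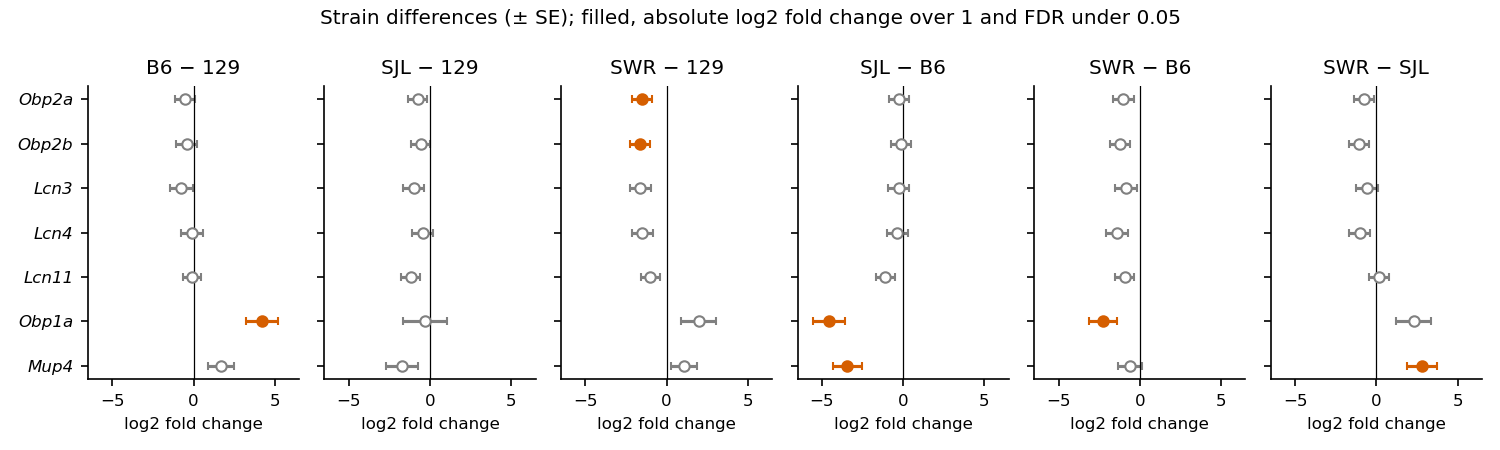
LFC between each pair of strains for the 7 genes, with bars of ± SE from edgeR on 32 libraries; filled points are the called genes. Filled points are Obp1a in 3 pairs, Mup4 in 2, and Obp2a and Obp2b in SWR against 129.

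While levels differed between mice by up to 53.3-fold (Lcn3) or 53.9-fold (Lcn4), the ratios between these genes inside a library were narrow, and they differed between strains. The ratio of Lcn3 to Lcn4 in normalized counts, not divided by length, was between 2.02 and 3.38 in 129, with a median of 2.82, and between 2.18 and 3.07 in SWR, with a median of 2.59. In B6 it was between 1.39 and 2.05 (median 1.81) and in SJL between 1.64 and 2.23 (median 1.75). The ranges of B6 and SWR did not overlap. On the log2 scale, B6 was lower than 129 by a difference of -0.67 ± 0.11 (SE; exact two-sided permutation test of 8 against 8, adjusted p 0.00186 over 36 tests). SJL differed from 129 by -0.63 ± 0.10 and SWR from B6 by 0.57 ± 0.09, with adjusted exact permutation p of 0.0021 and 0.0014. SWR and 129 differed by -0.10 ± 0.11 (exact permutation adjusted p 0.463), and SJL and B6 by 0.04 ± 0.09 (adjusted p 0.741).

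The ratio of Obp2a to Obp2b had its highest median in SWR, at 1.23 with a range of 1.15 to 1.26. In 129 the median was 1.11, with a range of 1.03 to 1.30 that held the highest single ratio, and the medians were 1.03 in B6 and 0.941 in SJL. SWR did not overlap with SJL (0.90 to 1.09) or B6 (0.92 to 1.12), and the log2 differences were 0.33 ± 0.04 and 0.26 ± 0.04 (exact permutation adjusted p 0.0014 for both). Obp2b to Lcn3 had medians of 2.67 in B6 and 2.76 in SJL, and of 1.95 in 129 and 1.78 in SWR. Of the 36 tests of 6 ratios over 6 strain pairs, 21 had an adjusted p under 0.05, and in 4 of them the ranges did not overlap. The smallest p these exact tests gave was 0.000155. Obp2b to Lcn4 passed in none of the 6 pairs. The 36 tests are not independent, since the ratios share genes and the pairs share strains: Obp2a to Lcn3, for example, is Obp2a to Obp2b times Obp2b to Lcn3. Ratios of other gene pairs were not computed, so no background stands beside these counts. The ratio test was added after the joint variation was seen. Leaving out any 1 library gave 20 to 24 tests with an adjusted p under 0.05. The reads of all strains were aligned to the mm10 reference, a B6 genome, and how differences of sequence between strains bear on these ratios was not tested.

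**Figure D4:**
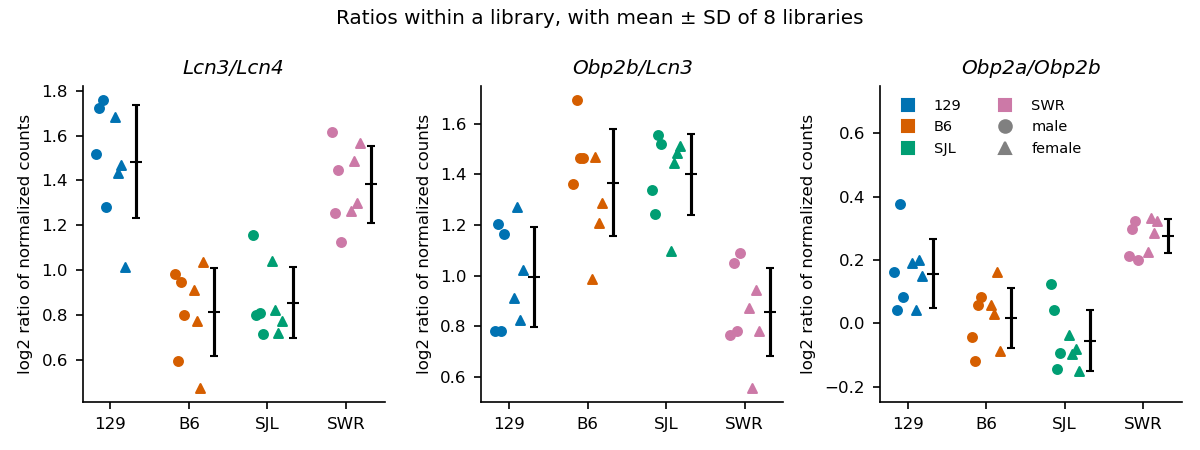
Log2 ratio of normalized counts inside each library for Lcn3/Lcn4, Obp2b/Lcn3 and Obp2a/Obp2b, by strain, with circles for males, triangles for females and, beside them, the mean ± SD of 8 libraries. For Lcn3/Lcn4, the means of 129 and SWR sit above those of B6 and SJL; for Obp2a/Obp2b, all SWR libraries sit above all B6 and SJL libraries.

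Obp1a, whose protein is known to pair with that of Obp1b in nasal mucus, was highest in B6. Its normalized counts in B6 were 18.1, 54.1, 109.2 and 8.8 in females 1 to 4, and 0.9, 55.9, 501.0 and 5.7 in males 1 to 4. In 129 the lowest, median and highest values were 0, 3.85 and 12, in SJL 0, 1.91 and 16.3, and in SWR 0.899, 3.55 and 98.7. Obp1a counts were low outside B6, with 0 reads in 3 SJL libraries and 1 of 129, and B6 male 1 (1 read), B6 male 4 and B6 female 4 lay inside the ranges of all 3 other strains.

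The LFC of Obp1a was 4.22 ± 0.98 (SE) for B6 against 129 (edgeR FDR 0.000508), from means of 94.2 ± 168 and 4.98 ± 4.59 normalized counts (SD, n = 8). It was 1 of 7 genes called in this pair, beside 11.1% of all genes. Against B6, SJL was lower by an LFC of -4.55 ± 0.98 (FDR 0.000294) and SWR by -2.26 ± 0.84 (FDR 0.03). Both Obp1a and Mup4 were called in SJL against B6, 2 of 7 genes beside 7.99% of all genes, and Obp1a alone in SWR against B6, beside 8.05%. DESeq2 called 0 of the 7 genes in SWR against B6, with an Obp1a LFC of -2.1 and an adjusted p of 0.111.

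B6 male 3 carried much of the Obp1a difference. Without it the LFC was 2.81 against 129 (FDR 0.00903) and -2.98 for SJL against B6 (FDR 0.00767), both still called, and -1.05 for SWR against B6 (FDR 0.274). The SWR call was also lost without any 1 of SWR males 1 to 4 or B6 female 3, and with the replicate block (LFC -1.76, FDR 0.147). Without SWR female 4, the highest Obp1a library of SWR, the LFC was -4.15 (FDR 0.000196). With all libraries numbered 3 left out, neither the 129 nor the SJL pair passed (LFC 2, FDR 0.106, and -2.23, FDR 0.0809). Within numbers 1 to 4 the mean log2 difference of B6 minus 129 was -0.59, 3.13, 6.38 and 1.84, and that of SJL minus B6 -1.64, -2.77, -7.38 and -2. That of SWR minus B6 was 0.81, -3.99, -6.32 and 1.01, below 0 in 2 of 4 numbers.

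Mup4 was low in most libraries and very high in a few. It was 487 normalized counts in B6 male 3, 168 in SWR male 1 and 127 in SWR female 4, and between 0 and 56.3 in the other 29. In 129 the spread was small, from 10.7 to 42.1 with a median of 19.4. The medians were 17 in B6, 4.57 in SJL and 7.4 in SWR. SJL was lower than B6 by an LFC of -3.43 ± 0.91 (edgeR FDR 0.00246), with means of 6.51 ± 6.03 and 79.4 ± 166, and SWR was higher than SJL by 2.82 ± 0.93 (FDR 0.0183), with a SWR mean of 42.3 ± 66.2. In SWR against SJL Mup4 was the 1 gene of 7 that edgeR called, against 4.5% of all genes, and DESeq2 called 2 of the 7. Without B6 male 3 the SJL and B6 difference was -1.80 (FDR 0.0876), and the SWR and SJL difference did not pass without SWR male 1 (2.27, FDR 0.0795) or SWR female 4 (1.83, FDR 0.125). Within numbers 1 to 4 the mean log2 difference of Mup4 was 0.24, -2.24, -6.10 and -0.14 for SJL minus B6, and 0.94, -0.65, 2.01 and 2.23 for SWR minus SJL. SJL against 129 had 0 of 7 genes called by edgeR and by DESeq2, and 1 with an unadjusted p under 0.05, beside 8.38% of all genes called.

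Obp1a and Mup4 were high in the same libraries, with r = 0.721 (rho 0.606, permutation p adjusted over 21 pairs 9.55e-05 and 0.0016, n = 32), and r = 0.58 without the 2 farthest libraries. The relation was not found in every strain: r was 0.97 in B6, 0.667 in SJL and 0.662 in SWR, but -0.177 in 129. The genes most like Mup4 were Gm14744 (r = 0.903 on log2 CPM, n = 32), Obp1b (0.833) and BC051076 (0.811). Those most like Obp1a were 5430402E10Rik (r = 0.882), Obp1b (0.875) and Gm14744 (0.788).

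Neither gene followed a marker list in sum, but these sums cannot show what markers at low levels do. The highest genes of a list set its sum. Median normalized counts were 10290 for Dmbt1 against 0.893 for Bpifb9b in the gland list. In the main olfactory list they were 2379 for Ano2 against 2.15 for Cnga2. With the gland, sustentacular, vomeronasal neuron, main olfactory neuron and ciliated cell lists, r was between -0.049 and 0.108 for Obp1a and between -0.019 and 0.042 for Mup4, and each permutation p adjusted over 15 relations was 0.977. Single markers of the main olfactory epithelium were high in B6 male 3. The olfactory channel gene Cnga2 was at 134 normalized counts there and between 0 and 36.2 in the other libraries, and Stoml3 at 228 against at most 65.8. Cyp2g1, an olfactory mucosa cytochrome from the sustentacular list, was at 437 against at most 72.5. In that list Ugt2a1 was at 0 in every library. The sustentacular sum in B6 male 3 was 13468, below the B6 median of 14353. The second-highest level of Cnga2, Stoml3 and Cyp2g1 was in B6 male 4, where Obp1a was 5.7 and Mup4 8.6. In the tests, Gnal and Stoml3, 2 of 5 tested main olfactory markers, were higher in B6 than in 129 (LFC 1.59 ± 0.41 and 2.27 ± 0.52). Both were lower than B6 in SJL (-1.43 ± 0.40 and -2.21 ± 0.51) and SWR (-1.14 ± 0.39 and -1.24 ± 0.48). Adcy3 and Cnga4 had LFC of the other sign in B6 against 129 (-0.48 and -0.38) and in SJL against B6 (0.83 and 0.60), with an edgeR FDR under 0.05 but below the LFC limit of 1. In the gland list, Bpifb9b was 86.2 in B6 male 3, 34.1 in B6 female 3 and 3.81 in B6 male 4. Dcpp3 was 18.3 in B6 male 3, 38.4 in B6 female 3 and 26.1 in B6 male 1. Bpifb9b and Dcpp3 were called higher in B6 than in 129 (LFC 3.81 ± 1.01 and 5.91 ± 0.76). They were lower than B6 in SJL (-3.82 ± 0.98 and -5.99 ± 0.75) and SWR (-2 ± 0.79 and -5.98 ± 0.75). Of 10 tested gland markers, 2, 4 and 2 were called in these pairs. The part of these olfactory and gland markers in the Obp1a and Mup4 values was not tested.

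**Figure D5:**
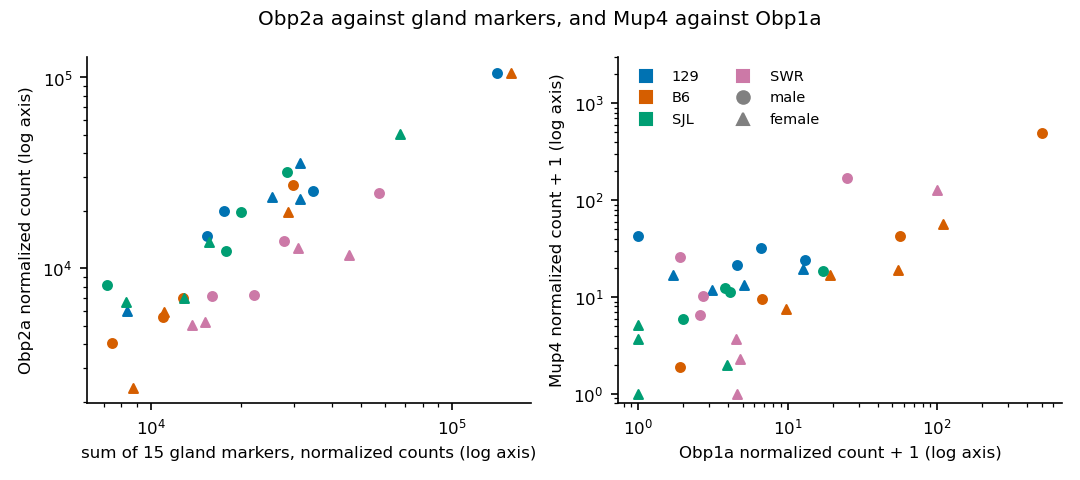
Left, Obp2a against the sum of 15 gland markers, and right, Mup4 + 1 against Obp1a + 1, all in normalized read counts on log axes, with 1 point per library, colored by strain, circles for males and triangles for females. Obp2a follows the gland sum (r = 0.955 on log2 values with each strain's mean taken away) and B6 male 3 is the highest library for both Mup4 and Obp1a.

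The study also asked whether expression differs between the sexes. None of the 7 genes was called between 16 males and 16 females by edgeR (FDR under 0.01 and an LFC of more than 1 either way) or by DESeq2, beside 0.0381% of all genes, and 1 of the 7, Mup4, had an unadjusted p under 0.05. Obp2a was 20960 normalized counts in males and 20930 in females on average, with an LFC of -0.03 and a 95% interval of -0.91 to 0.85. The LFC of Obp2b (-0.03), Lcn3 (-0.19), Lcn4 (-0.21), Lcn11 (-0.03) and Obp1a (0.38) had intervals that included 0 as well, the widest for Obp1a (-1.01 to 1.78). Differences inside these intervals are not excluded at this spread between mice, and the smallest difference that could be called was not computed.

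Mup4 was the member with the largest value between the sexes. Its mean was 56.6 normalized counts in males and 18.3 in females, an LFC of 1.41 ± 0.60 (SE) with an edgeR FDR of 0.464. In 129 the males had 30.9, 22.9, 20.3 and 42.1 and the females 18.6, 10.7, 15.7 and 12.4. In SJL the males had 11.3, 17.5, 4.9 and 10.4 and the females 2.7, 1.0, 0.0 and 4.2. The sexes did not overlap in either strain. All 4 males lay above all 4 females in 1.35% of tested genes in 129, in 2.23% in SJL and in 0.0653%, or 12 genes, in both. In B6, 486.8, 41.7, 8.6 and 0.9 in males overlapped with 56.3, 18, 16 and 6.6 in females, and in SWR the sexes overlapped through female 4. Counts behind the SJL values were between 0 and 28 reads per library. This pattern was singled out after the values were seen.

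Within single strains, none of the 7 genes was called between the sexes by edgeR or DESeq2, beside 0.0381% of all genes for 129, 0.0544% for B6 and also 0.0544% for SJL, and 0.0816% for SWR. An unadjusted p under 0.05 was found for 3 genes, all in B6: Lcn3 (LFC -2.01 ± 0.90, edgeR FDR 0.505) and Lcn4 (-1.99 ± 0.88, FDR 0.5), lower in males, and Mup4 (2.32 ± 1.08, FDR 0.523). In B6 the female Lcn3 values were 51088, 2091, 7669 and 1033 and the male values 2238, 1365, 2441 and 9395, so the sexes overlapped and female 1 stood apart. No member had a sex by strain interaction (edgeR, FDR under 0.05, 0.0163% of all genes), by DESeq2 either, and none had an unadjusted p under 0.05.

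Other genes of the lipocalin fold were mostly at few or no reads in this tissue. Of 50 names listed, 41 had a row and 7 passed the filter. Of these 7, 4 were called in at least 1 strain pair, beside 19.8% of all genes tested. Lcn5, Lcn6, Lcn8, Lcn9, Lcn10 and Lcn12 reached at most 7 reads in any library. Obp1b (chrX:78186777-78192292) and Gm14744 (chrX:77864758-77870033), on either side of Obp1a, were called in several of the same pairs. Obp1b was higher in B6 than in 129 (LFC 4.23 ± 0.97, edgeR FDR 0.000455) and lower in SJL (-4.75 ± 1.01) and SWR (-1.95 ± 0.79) than in B6. Gm14744 was higher in B6 than in 129 (3.63 ± 0.92), lower in SJL than in B6 (-5.26 ± 1.08) and higher in SWR than in SJL (3.71 ± 1.15, FDR 0.0119), as Mup4 was. Their highest library was again B6 male 3, with 278 normalized counts of Obp1b and 533 of Gm14744.

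Apod, an apolipoprotein that carries lipids, was higher in SJL than in 129 (1.68 ± 0.14) and lower in SWR than in SJL (-1.32 ± 0.14), with means of 3155 in SJL, 988 in 129 and 1274 in SWR. Orm1, an acute-phase plasma protein, was lower in SJL (-2.07 ± 0.79) and SWR (-3.80 ± 0.97) than in 129 and lower in SWR than in B6 (-2.97 ± 1.05), at means under 19 normalized counts. Lcn2, an iron-binding defense lipocalin, was between 49.4 and 2145 with its highest value in B6 female 1, and was called in no pair. The major urinary protein genes other than Mup4 reached at most 28 reads, for Mup5. Only uniquely mapped reads were counted, so reads that fit more than 1 of these genes are missing from their counts. How many such reads there were was not tested.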

How the data were processed

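Raw counts and normalized counts of the 32 libraries were used as deposited. The authors isolated total RNA from the vomeronasal epithelium of single mice, removed ribosomal RNA, made stranded libraries (TruSeq Stranded Total RNA), trimmed reads with Trim Galore, aligned them to mm10 with STAR and counted unique reads per Ensembl gene on the sense strand. The deposited normalized values are a signal: counts scaled by 1 DESeq2 factor for each library. The number from 1 to 4 comes from read-file names in the labels, where it may be a sequencing lane, with no statement of what it is, and p-values measure the spread between single mice. Intervals are given for LFC only and come from the SE of the edgeR fit, which includes the spread between mice.

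Counts were tested with edgeR 4.0.16 (TMM, filterByExpr over 8 groups, 18382 genes, quasi-likelihood F test, Benjamini-Hochberg over all tested genes) in R 4.3.3, with strain and sex as terms, or 8 group means for sex within a strain and the 3 interaction terms. SE was taken from the LFC and its F value, and 95% intervals from the SE. DESeq2 1.42.0, DESeq2 size factors, no filter, the number as a block and leaving out libraries were alternatives. The scripts were first tested on simulated counts. TPM used exon lengths of GENCODE (49326 of 49671 genes matched). Correlations were on log2(normalized count + 1), for genes with a mean of at least 10. The genes named are all members, every related lipocalin called between strains and, per member, the 3 most correlated genes. The members, gene lists and tests were chosen with earlier results of these data known. The paper names the 129 mice differently from the labels, and the labels are followed here. Chi-square per degree of freedom between the 48 pairs of libraries of a group was between 2.71 and 48.2, and each library was counted once.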

Additional observations from a re-analysis of the deposited data

Results flagged for a closer look

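Single libraries that stood apart from the other 3 of their group were looked for in 7 genes and 8 groups on the log2(normalized count + 1) scale, by Dixon's ratio of gap to range for 4 samples. Of 56 groups of values 5 held such a library. The limit is set so that 5% of groups of independent normal values would pass by chance. Several of these genes vary together and some counts are low, so that 5% is no reference for the number found. Lcn4 was at 892 normalized counts in 129 female 2, against 4113 to 5198 in the other females, and at 19264 in 129 male 1, against 2556 to 3371 in the other males. Obp1a was at 98.7 in SWR female 4, against 3.54 to 3.81, and at 23.9 in SWR male 1, against 0.899 to 1.69. In SJL female 2 Obp1a was at 2.9, which is 3 reads, and the other 3 females were at 0.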

How the results depend on the processing

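The number of genes of the set called between strains was 4, also with DESeq2. It was 3 with the replicate block and 6 without the filter on low counts. It was 2 when all libraries numbered 1, all numbered 2, all numbered 3 or all numbered 4 were left out, and 2 to 6 when single libraries were. 4 single libraries gave 2 (129 male 1, SWR male 2, SWR female 3 and SWR female 4). Called related lipocalins were 7 with DESeq2 and 25 without the filter, and all called genes 7604 and 12873, against 4 and 3632. Without the filter, 3 members were called between the sexes within a strain and 4 had an interaction, against 0 of each. The cause of these changes was not tested.

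The LFC between males and females changed sign in several settings, never past the threshold. With the replicate block it was 0.11 for Lcn3, 0.02 for Lcn4, 0.23 for Obp2a and 0.22 for Obp2b, and with DESeq2 0.01 for Lcn11. Without 129 male 1 and B6 female 1 it was 0.16 for Obp2a and 0.15 for Obp2b. Without the libraries numbered 1 it was 0.45 for Lcn3, 0.34 for Lcn4, 0.05 for Lcn11, 0.56 for Obp2a and 0.57 for Obp2b. Without those numbered 2 it was 0.01 for Lcn11, 0.04 for Obp2a and 0.02 for Obp2b, without number 3 -0.42 for Obp1a and without number 4 0.11 for Lcn11. With single libraries left out, it was from -0.52 to 0.31 for Lcn3, -0.55 to 0.23 for Lcn4, -0.42 to 0.27 for Lcn11, -0.73 to 1.33 for Obp1a, -0.30 to 0.41 for Obp2a and -0.32 to 0.42 for Obp2b. The r of Obp2a with Obp1a was then -0.101 to 0.033.

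Same-numbered males and females of a strain deviated together weakly at most: over 16 pairs r was between -0.263 and 0.244, and above 0.1 in 6. The 7 pairs that correlated best with their own number were numbers 1 to 3 of 129 and of SJL, and number 2 of B6. How many would do so by chance was not computed, so these r cannot decide whether the numbers pair the mice. The main model leaves the number out, and the block is an alternative. The count of 11 related pairs among members held under each pseudocount, centring and left-out library tried. Low counts limit Obp1a and Mup4 most.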
